A study of Mus musculus with 8 samples.

Results

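The data cover 10 chaperonin genes in mouse Lewis lung carcinoma (LLC) cells with and without factor inhibiting HIF (FIH): the 8 genes that encode the subunits of the cytosolic chaperonin CCT (Tcp1, Cct2, Cct3, Cct4, Cct5, Cct6a, Cct7 and Cct8) and the 2 that encode the mitochondrial chaperonin and its cofactor (Hspd1 and Hspe1). They were taken by symbol from a count table of 53700 genes, and all 10 were among the 13933 genes with enough reads to be tested. LLC is a cultured mouse lung tumor line. FIH-KO cells were made from it by CRISPR/Cas9 editing of Hif1an, the gene for the asparagine hydroxylase FIH, followed by single-cell dilution, and WT cells carry the unedited gene. Both were kept in normoxia (21% O2) or hypoxia (1% O2) for 16 hours with no further treatment, and 2 libraries were sequenced per group, 8 in all. How many FIH-KO clones these libraries came from was not stated in the sources used here, so the loss of FIH and the properties of a clone cannot be told apart, and nothing says whether the 2 libraries of a group came from separate cultures, so the p values measure the spread between these libraries.

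CCT, also called TRiC, is a barrel of stacked rings in the cytosol in which every subunit has its own gene and its own fixed place. It encloses newly made proteins, above all actin and tubulin, and releases them folded in a cycle driven by ATP. Hspd1 encodes Hsp60, the barrel of the mitochondrial matrix, and Hspe1 encodes Hsp10, the lid that closes it. The mitochondrial pair lies head to head on the genome with a shared stretch between the start sites, and is known to be induced when proteins misfold in mitochondria or after heat shock. Genes of both chaperonins are abundantly expressed in proliferating cells.

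The libraries held 14519731 to 18177016 reads assigned to genes. Levels are given as CPM, reads scaled to a common library total after TMM correction for differences in composition. Fold changes and P values come from the quasi-likelihood test of edgeR. P values were adjusted for the number of genes tested (Benjamini-Hochberg), and a gene was called at an adjusted p under 0.05. Hif1an itself had 83.4 ± 1.62 CPM in WT and 36.2 ± 2.05 CPM in FIH-KO cells in normoxia, and 87.1 ± 4.34 against 48.3 ± 3.89 CPM in hypoxia (SD, n = 2 each), with a log2 fold change of −1.20 in normoxia (adjusted p = 3.1e-05) and one of −0.85 in hypoxia (adjusted p = 0.00031). Of the keratins and mesenchymal markers, Krt8 (104 to 332 CPM), Krt18 (110 to 205 CPM) and Vim (3189 to 5442 CPM) were expressed in every library, Krt19 had 0.652 to 14.7 CPM and Krt7 at most 0.714 CPM, while the epithelial genes Epcam and Cdh1 and the lung markers Nkx2-1, Sftpc, Sftpb, Scgb1a1 and Napsa had at most 11 reads in any library. Of 6 immune, endothelial and red cell markers, Cd3e and Hbb-bs had 0 reads, and the highest was Cd68 with at most 7.18 CPM. Of the 4 keratin and mesenchymal markers tested, 2 were higher in FIH-KO cells in both oxygen conditions, Krt8 with log2 fold changes of 1.02 and 1.00 (adjusted p = 0.00066 and 0.00083) and Vim with 0.52 and 0.58 (adjusted p = 0.017 and 0.01). The call of Vim was lost without FIH-KO normoxia replicate 1 or WT normoxia replicate 1 in normoxia, and without WT hypoxia replicate 2 in hypoxia. The part of this difference between the lines in the results on chaperonin genes was not tested.

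Each of the 10 genes was lower in FIH-KO than in WT cells in normoxia, with no overlap between the 2 libraries of each group, as were 34.8% of all tested genes. By the test, 9 of 10 were called lower, beside 13.0% of all tested genes. The 10 were chosen with earlier results of these data known and moved together over the libraries. The shares of all genes beside these counts are therefore a background and not a test. In these bulk libraries, less of a message in every cell and fewer cells that hold it cannot be told apart. Hspd1, Cct3, Hspe1, Cct6a and Cct7 fell most, and Cct3 and Hspd1 had about the same change, near a log2 fold change of −1. In hypoxia the 6 genes Cct3, Hspd1, Hspe1, Cct6a, Cct7 and Cct4 were called lower in FIH-KO cells, beside 13.9% of all tested genes. None of the 10 was called higher in any comparison. Hypoxia itself lowered 7 of the 10 in WT cells, beside 15.5% of all tested genes.

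The stretches of genome in front of the genes are shown first, since the mitochondrial pair shares a single one and the CCT genes lie on 8 different chromosomes. In GRCm39, Hspd1 is transcribed from the minus strand of chromosome 1 and Hspe1 from the plus strand, and 107 bases separate the start sites of their canonical transcripts. They are printed on the plus strand, the direction of Hspe1, with capitals marking 3 overlapping matches to the paired heat shock repeat, spelled GAANNTTC or TTCNNGAA. The interval is chr1:55127184-55127290.

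Hspd1-Hspe1 interval: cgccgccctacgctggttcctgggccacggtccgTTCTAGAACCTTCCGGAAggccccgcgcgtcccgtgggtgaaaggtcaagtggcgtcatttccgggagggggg

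The CCT genes have no such partner in the set, and 4 of their upstream sequences are shown because the genes span the range of the response: Cct3, Cct6a and Cct7 as the subunits that fell most in FIH-KO cells, and Cct5 as the subunit that fell least. Each is the 120 bases before the start of the canonical transcript, on the strand of the gene. A single chosen motif is marked in each stretch, and matches to the other motifs searched stay in lower case. An example is CCGCCC, which is GGGCGG on the other strand, in Cct7 and in the interval above. Capitals mark TTCCAGAA, a match to the same heat shock repeat, in Cct5 (chr15:31601960-31602079, minus strand), CCAAT in Cct6a (chr5:129863942-129864061, plus strand), ATTGG, which is CCAAT on the other strand, in Cct7 (chr6:85428320-85428439, plus strand), and CACGC, which is GCGTG on the other strand, in Cct3 (chr3:88204169-88204288, plus strand).

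Cct5: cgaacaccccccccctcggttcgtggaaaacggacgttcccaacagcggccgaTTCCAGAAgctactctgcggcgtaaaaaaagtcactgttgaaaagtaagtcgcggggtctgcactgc
Cct6a: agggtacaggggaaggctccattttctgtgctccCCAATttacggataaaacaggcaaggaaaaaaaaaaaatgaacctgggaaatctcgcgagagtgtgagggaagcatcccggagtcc
Cct7: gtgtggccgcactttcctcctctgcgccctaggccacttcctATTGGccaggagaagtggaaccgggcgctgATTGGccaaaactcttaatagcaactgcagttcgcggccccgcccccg
Cct3: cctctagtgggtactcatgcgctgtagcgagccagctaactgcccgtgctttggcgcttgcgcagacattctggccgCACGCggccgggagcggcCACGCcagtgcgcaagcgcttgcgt

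Motifs were searched on both strands from 250 bases before to 50 bases after the canonical start. The E box CACGTG, the sequence bound by Myc and Max, was in 0 of 10 windows, against 10.3% of the 11622 windows of tested protein-coding genes. The core of the hypoxia response element, ACGTG or GCGTG, was in 7 of 10 windows (62.5% of all windows), and CACGTG contains it. The heat shock repeat was in 3 of 10 windows (12.2% of all), those of Cct5, Hspd1 and Hspe1, and the windows of Hspd1 and Hspe1 share the stretch printed above. CCAAT was in 4 of 10 (40.3% of all), in Tcp1, Cct6a, Cct7 and Hspd1, and the Sp1 motif GGGCGG in 7 of 10 (59.7% of all). These are matches of letters, and no binding was measured.

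**Figure D1:**
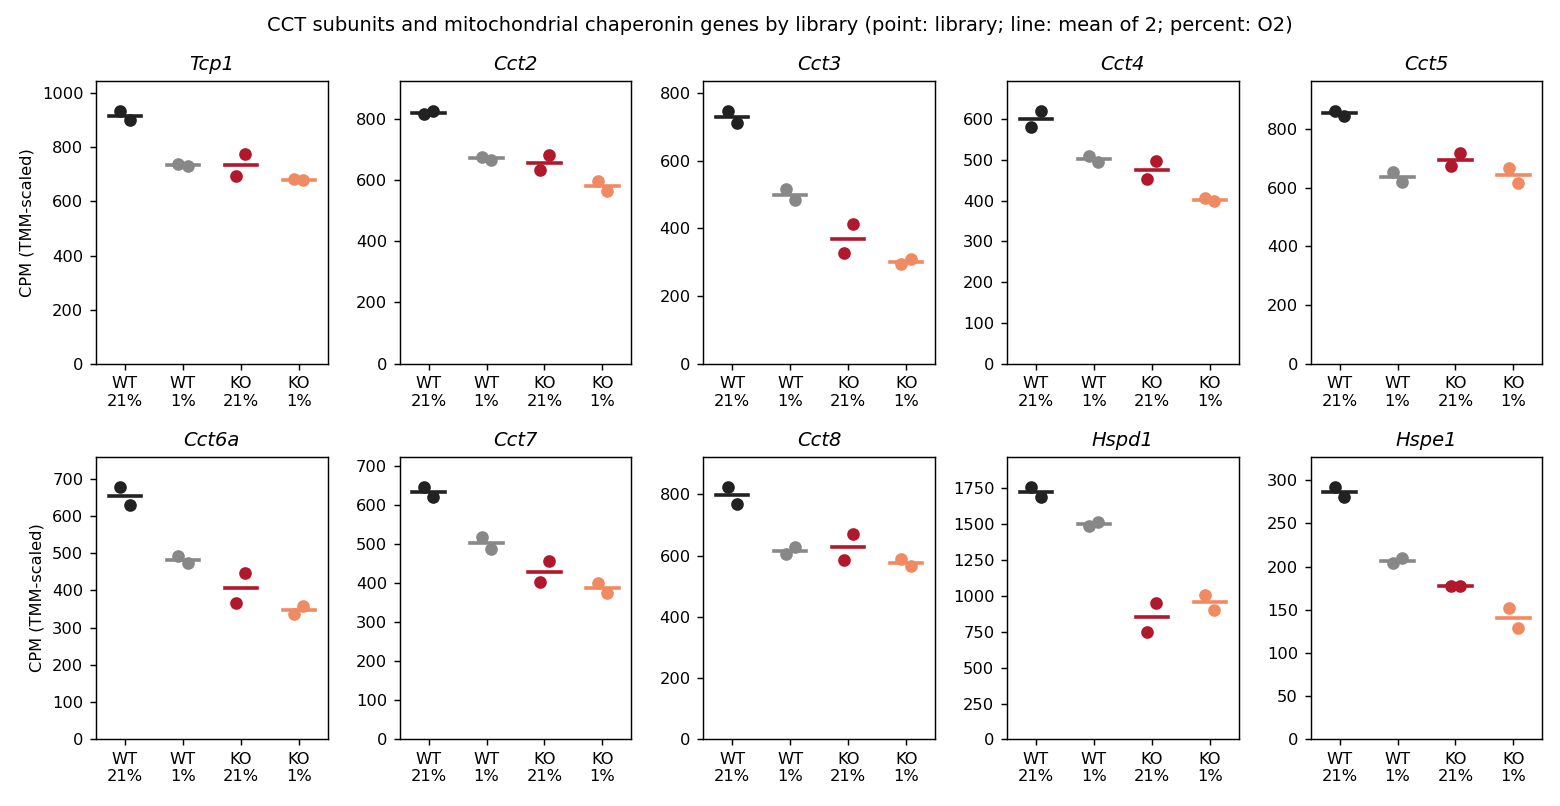
Level of each of the 10 genes in CPM (y axis, from 0) in the 8 libraries, grouped by genotype and O2 on the x axis, with a point for each library and a line at the mean of 2. The WT normoxia libraries are the highest for every gene, and the FIH-KO libraries of Hspd1 and Cct3 all lie under the WT libraries of both oxygen conditions.

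Hspd1 was the most abundant of the 10. It had 1758 and 1692 CPM in WT normoxia, 1484 and 1516 in WT hypoxia, 751 and 953 in FIH-KO normoxia, and 1008 and 905 in FIH-KO hypoxia. All 4 FIH-KO libraries lay below all 4 WT libraries. The log2 fold change of FIH-KO over WT was −1.02 in normoxia (SE 0.14, adjusted p = 0.00026) and −0.65 in hypoxia (SE 0.13, adjusted p = 0.0039). Hypoxia changed it by −0.20 in WT (SE 0.13, adjusted p = 0.28) and by 0.17 in FIH-KO cells (SE 0.13, adjusted p = 0.44), neither of which passed the test, and it was the only gene of the 10 with a positive value for hypoxia in FIH-KO cells.

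Hspe1, the lid, had 292 and 281 CPM in WT normoxia, 204 and 210 in WT hypoxia, 177 and 177 in FIH-KO normoxia, and 152 and 129 in FIH-KO hypoxia. Here too every FIH-KO library lay below every WT library. The genotype effect was −0.69 in normoxia (SE 0.11, adjusted p = 0.00078) and −0.56 in hypoxia (SE 0.11, adjusted p = 0.0029). Unlike Hspd1, Hspe1 was called lower in hypoxia in WT cells, with a log2 fold change of −0.47 (SE 0.11, adjusted p = 0.0066).

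Per length of transcript, Hspd1 and Hspe1 kept no fixed ratio. The RPKM (CPM per kilobase of the canonical transcript) of Hspd1 over that of Hspe1 was 1.92 in both WT normoxia libraries and 2.32 and 2.31 in WT hypoxia, 1.35 and 1.72 in FIH-KO normoxia, and 2.12 and 2.24 in FIH-KO hypoxia. Within each genotype the ratio was higher in both hypoxia libraries than in both normoxia libraries. It was lower in FIH-KO than in WT libraries of the same oxygen condition, with the 2 FIH-KO normoxia libraries far apart. With 2 libraries per group these ratios are a description. At this locus Hspe1 lies within the annotated span of Hspd1 on the opposite strand, 143 exonic bases are shared, and the strand setting of the counting was not stated. Processed copies elsewhere in the genome took few reads, with 0.806% to 1.15% of the reads of Hspd1 on 5 named copies and 1.53% to 2.28% of those of Hspe1 on 7.

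Among the CCT subunits Cct3 (the gamma subunit) moved most. It had 746 and 712 CPM in WT normoxia, 516 and 483 in WT hypoxia, 326 and 412 in FIH-KO normoxia, and 294 and 308 in FIH-KO hypoxia. The groups formed a descending series with no overlap between neighbours. The log2 fold change of FIH-KO over WT was −0.98 in normoxia (SE 0.13, adjusted p = 0.00021) and −0.73 in hypoxia (SE 0.13, adjusted p = 0.0014), and that of hypoxia over normoxia was −0.55 in WT cells (SE 0.13, adjusted p = 0.0063).

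Cct6a (zeta) and Cct7 (eta) followed. Cct6a had 678 and 630 CPM in WT normoxia, 492 and 473 in WT hypoxia, 365 and 447 in FIH-KO normoxia, and 337 and 358 in FIH-KO hypoxia, and its FIH-KO libraries all lay below its WT libraries. Its genotype effect was −0.69 in normoxia (SE 0.12, adjusted p = 0.0016) and −0.47 in hypoxia (SE 0.12, adjusted p = 0.013). Cct7 had 646 and 621 CPM in WT normoxia, 518 and 489 in WT hypoxia, 403 and 456 in FIH-KO normoxia, and 399 and 375 in FIH-KO hypoxia, again with no FIH-KO library as high as a WT library. Its genotype effect was −0.56 in normoxia (SE 0.11, adjusted p = 0.0033) and −0.38 in hypoxia (SE 0.11, adjusted p = 0.025).

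The other 5 subunits changed less, and their tests passed narrowly or not at all. Cct4 (delta) had 581 and 619 CPM in WT normoxia, 509 and 494 in WT hypoxia, 453 and 496 in FIH-KO normoxia, and 406 and 398 in FIH-KO hypoxia. Its genotype effects were alike in size in the 2 oxygen conditions, −0.34 in normoxia (SE 0.11, adjusted p = 0.035) and −0.32 in hypoxia (SE 0.11, adjusted p = 0.044). Cct2 (beta), Tcp1 (alpha) and Cct8 (theta) had normoxic effects of −0.32 to −0.34, with adjusted p values of 0.043, 0.048 and 0.043, and hypoxic effects of −0.21, −0.11 and −0.10, with adjusted p values of 0.18, 0.49 and 0.57.

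Cct5 (epsilon) was the subunit least affected by genotype. It had 861 and 846 CPM in WT normoxia, 655 and 618 in WT hypoxia, 674 and 718 in FIH-KO normoxia, and 667 and 618 in FIH-KO hypoxia. In hypoxia the WT and FIH-KO libraries overlapped, the only gene of the 10 for which they did. The genotype effect was −0.29 in normoxia (SE 0.11, adjusted p = 0.065) and 0.01 in hypoxia (SE 0.11, adjusted p = 0.95). Hypoxia nevertheless lowered Cct5 in WT cells, by −0.42 (SE 0.11, adjusted p = 0.012).

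**Figure D2:**
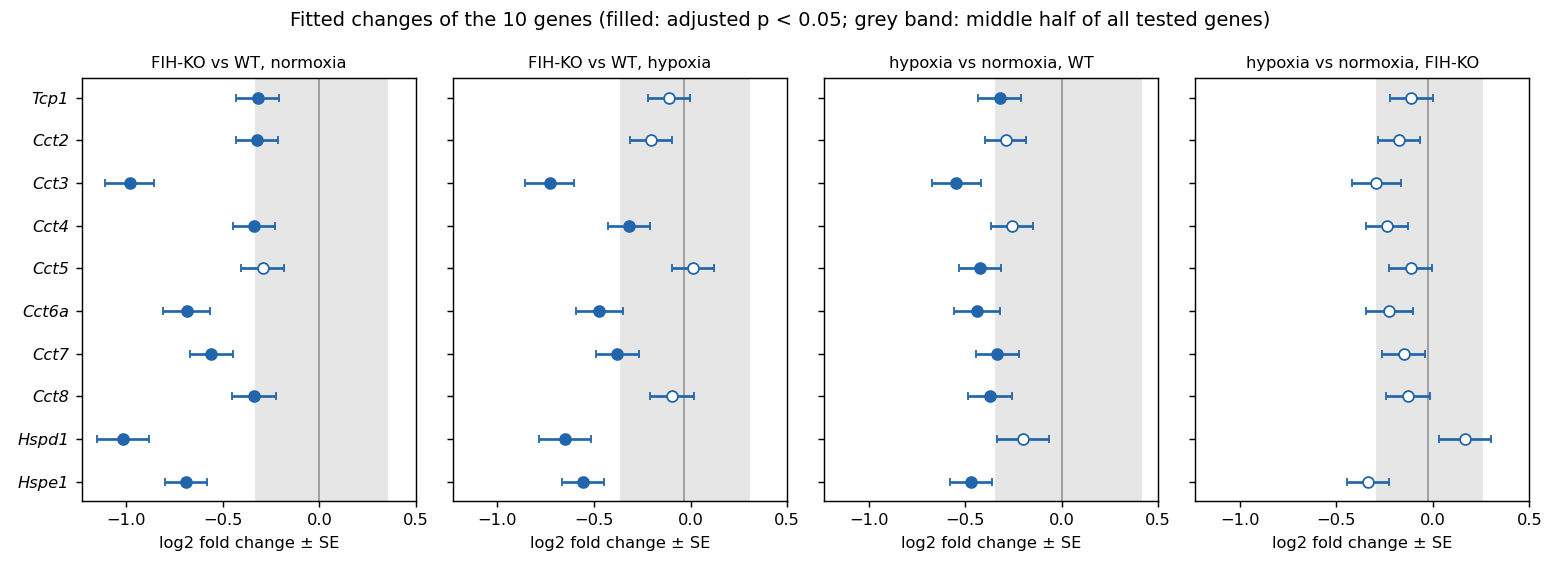
Fitted log2 fold change of each gene (x axis, point with a bar of 1 SE) in the 4 comparisons, filled where the adjusted p was under 0.05, with a grey band over the middle 50% of all tested genes. In normoxia the FIH-KO values run from −1.02 for Hspd1 to −0.29 for Cct5, and in FIH-KO cells none of the hypoxia values is filled.

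In normoxia the median of the 10 was −0.45 on the log2 scale, beside −0.0025 over all genes. All 10 were lower with no overlap between the groups, as were 34.8% of all tested genes. Calls for 5 genes (Cct3, Cct6a, Cct7, Hspd1 and Hspe1) were made in each fit with a library left out and under each other normalization, filter or tool tried. The other 4 calls were lost, leaving 5, without FIH-KO normoxia replicate 1, WT normoxia replicate 1, WT normoxia replicate 2 or WT hypoxia replicate 2, and the calls of Tcp1 and Cct8 were lost, leaving 7, without WT hypoxia replicate 1. Cct5 was called as well, for 10 of 10, without FIH-KO hypoxia replicate 1 or 2. With library totals in place of TMM, and with no filter on low counts, 6 of the 10 were called.

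In hypoxia, where 6 of 10 genes were called lower in FIH-KO cells, the median of the 10 was −0.35 beside −0.03 over all genes. The libraries did not overlap for 9 of 10 genes, beside 32.5% of all. Cct4 was called in 0 of the 8 fits with a library left out and in 4 of the 8 other settings tried. In those other settings Cct7 was called in 7. The calls of Cct3, Hspd1 and Hspe1 were made in all 8 fits with a library left out. Without WT hypoxia replicate 1 or replicate 2 these 3 were the only calls, without FIH-KO hypoxia replicate 1 Cct4 and Cct6a were lost, without FIH-KO hypoxia replicate 2, WT normoxia replicate 1 or WT normoxia replicate 2 Cct4 and Cct7 were lost, and without either FIH-KO normoxia library Cct4 was lost.

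Between hypoxia and normoxia in WT cells the median of the 10 was −0.35 beside −0.0011 over all genes. The 7 called were Cct3, Hspe1, Cct6a, Cct5, Cct8, Cct7 and Tcp1, with log2 fold changes from −0.55 to −0.32, while Cct2 had −0.29 (adjusted p = 0.057), Cct4 −0.26 (adjusted p = 0.088) and Hspd1 −0.20 (adjusted p = 0.28). The WT libraries of the 2 oxygen conditions did not overlap for any of the 10 genes, beside 35.6% of all genes that were lower without overlap. This comparison shares its WT normoxia libraries with the genotype comparison in normoxia. Its calls rested on single libraries more than the others did, with 3 left without WT hypoxia replicate 1, 1 without WT hypoxia replicate 2, 2 without WT normoxia replicate 1 and 3 without WT normoxia replicate 2, and Hspe1 the call made in all of them. Without an FIH-KO library 8 or 9 were called, as Cct2 passed and, except without FIH-KO hypoxia replicate 2, Cct4 also.

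In FIH-KO cells edgeR called 0 of 10 genes for hypoxia, beside 8.0% of all tested genes called lower in that comparison, and 3 of the 10 had an unadjusted p under 0.05. The median of the 10 was −0.16, beside −0.03 over all genes, and 8 of 10 were lower without overlap, beside 29.3% of all genes. Without FIH-KO normoxia replicate 2 the median was −0.048. Hspe1 came closest, with a log2 fold change of −0.34 (SE 0.11, adjusted p = 0.056), and DESeq2 called it as the only gene of the 10. It was also called without FIH-KO hypoxia replicate 1 (adjusted p = 0.036). Cct3 had −0.29 (SE 0.13, adjusted p = 0.14).

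The size of the genotype effect was compared between the oxygen conditions in the same model. All 10 differences (hypoxia minus normoxia) were positive, from 0.02 for Cct4 to 0.37 for Hspd1, with standard errors between 0.15 and 0.19. Over all tested genes, 52.4% of these differences were below 0. The 10 rest on the same libraries and moved together, so their shared sign is not 10 separate results. In edgeR 0 of 10 genes passed, with 0 at an unadjusted p under 0.05 and a lowest adjusted p of 0.77, and 0.00% of all tested genes were called, while 925 of all tested genes had an unadjusted p under 0.05. DESeq2 called 0 of the 10 and 37 genes in all. The effects of FIH-KO in normoxia and in hypoxia were therefore not shown to differ for any of these genes, and with standard errors of this size a difference of the order of the measured values was not detectable.

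The 8 CCT genes together held 6083 and 5922 CPM in WT normoxia, 4707 and 4579 in WT hypoxia, 4135 and 4654 in FIH-KO normoxia, and 3969 and 3863 in FIH-KO hypoxia. The WT normoxia libraries stood above the rest, and FIH-KO normoxia replicate 1 lay below replicate 2 for 9 of the 10 genes, with Hspe1 alike in both. Per length of the canonical transcript, the most abundant subunit had between 3.19 and 3.54 times the level of the least abundant in every library. That length was 1967 bases for Cct2 and 4735 bases for Cct4, and the use of other transcripts was not measured. In CPM, without length, the WT normoxia means ran from 600 for Cct4 to 917 for Tcp1, with Cct5 (853) above Cct3 (729). In WT normoxia the order by RPKM ran from Cct2 (417 ± 3.05), Tcp1 (362 ± 9.0) and Cct3 (345 ± 11.2) through Cct7 (254 ± 7.01), Cct6a (235 ± 12.2), Cct8 (229 ± 10.9) and Cct5 (215 ± 2.63) to Cct4 (127 ± 5.61; SD, n = 2 each), and among these neighbours the libraries overlapped for Cct6a and Cct8. Hspd1 had 712 ± 19.3 RPKM and Hspe1 370 ± 10.2 (SD, n = 2 each), and Hspe1 overlapped with Tcp1.

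In FIH-KO normoxia Cct2 (333 ± 17.3 RPKM) and Tcp1 (290 ± 22.2 RPKM) were still the leading subunits and Cct4 (100 ± 6.38 RPKM) the lowest, while Cct3 (175 ± 28.6 RPKM) overlapped with its neighbours Cct5 (175 ± 7.81 RPKM) and Cct7 (172 ± 15.0 RPKM; SD, n = 2 each). Hspd1, at 352 ± 59.1 RPKM, overlapped there with Cct2. As a share of the summed RPKM of the 8 subunits, Cct3 held 13.77% to 15.96% in the 4 WT libraries and 9.85% to 11.69% in the 4 FIH-KO libraries. The shares of Cct6a and Cct7 were likewise lower in all FIH-KO libraries, those of Tcp1, Cct2, Cct5 and Cct8 were higher, and that of Cct4 overlapped. Shares sum to a whole, so a higher share of Cct5 (9.36% to 9.89% in WT and 10.8% to 11.9% in FIH-KO libraries) is no rise of its level.

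**Figure D3:**
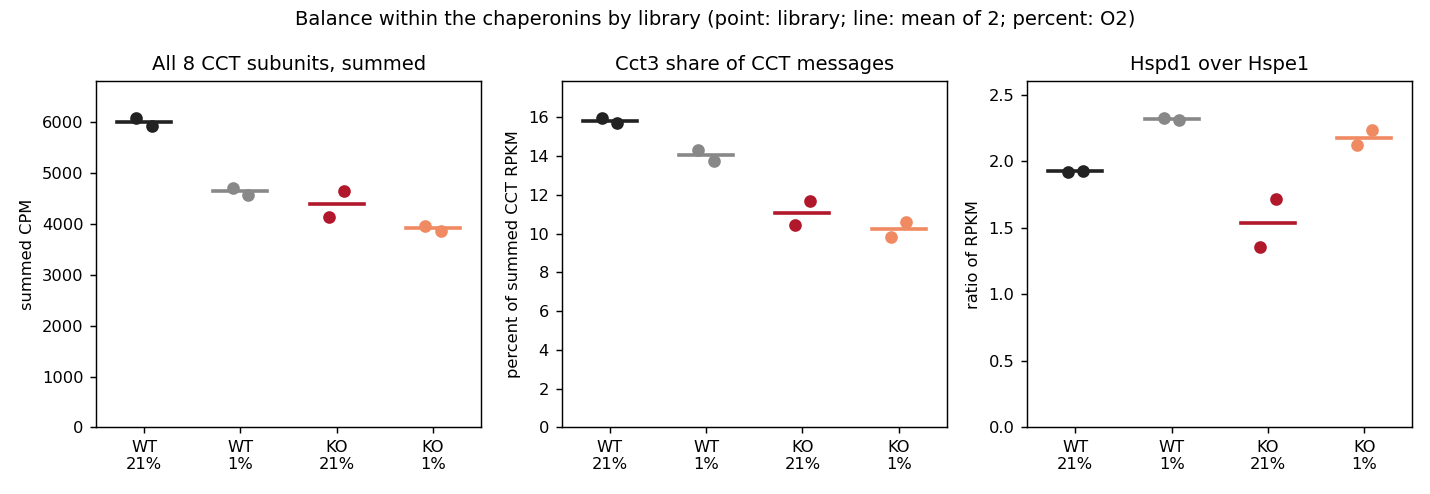
Summed CPM of the 8 CCT genes, share of Cct3 in the summed RPKM of CCT (percent), and ratio of the RPKM of Hspd1 to that of Hspe1 (y axes, from 0) in the 8 libraries, by genotype and O2, with a line at the mean of 2. The Cct3 share is 13.77% or more in WT and 11.69% or less in FIH-KO libraries, and the ratio is highest in WT hypoxia at 2.31 and 2.32.

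The positions of the genes bear on the comparison, because the median log2 fold change of FIH-KO over WT differed between chromosomes. Chromosome 3, which carries Cct3, had a median of −0.36 in normoxia and −0.41 in hypoxia over 683 tested genes, the lowest of the chromosomes that hold the 10 genes, and Cct3 minus this median was −0.63 and −0.32. The effect of Cct3 was thus smaller against its own chromosome than against all genes, and the part of chromosome 3 in it was not tested. On this scale Cct3 did not lead the subunits in hypoxia, where Cct6a and Cct2 had −0.35 each. In normoxia Cct6a, at −0.59, was near Cct3. Hspd1 and Hspe1 on chromosome 1, whose medians were −0.06 and −0.12, differed from them by −0.96 and −0.63 in normoxia and by −0.53 and −0.44 in hypoxia. Tcp1, Cct2 and Cct8 lie on chromosomes 17, 10 and 16, whose medians in normoxia were positive at 0.17, 0.19 and 0.23, so that these subunits differed from their chromosomes by −0.49, −0.51 and −0.57. Every one of the 10 genes lay below the median of its chromosome in both oxygen conditions, by 0.28 or more in normoxia (−0.28 for Cct4) and by as little as −0.07 for Cct5 in hypoxia.

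**Figure D4:**
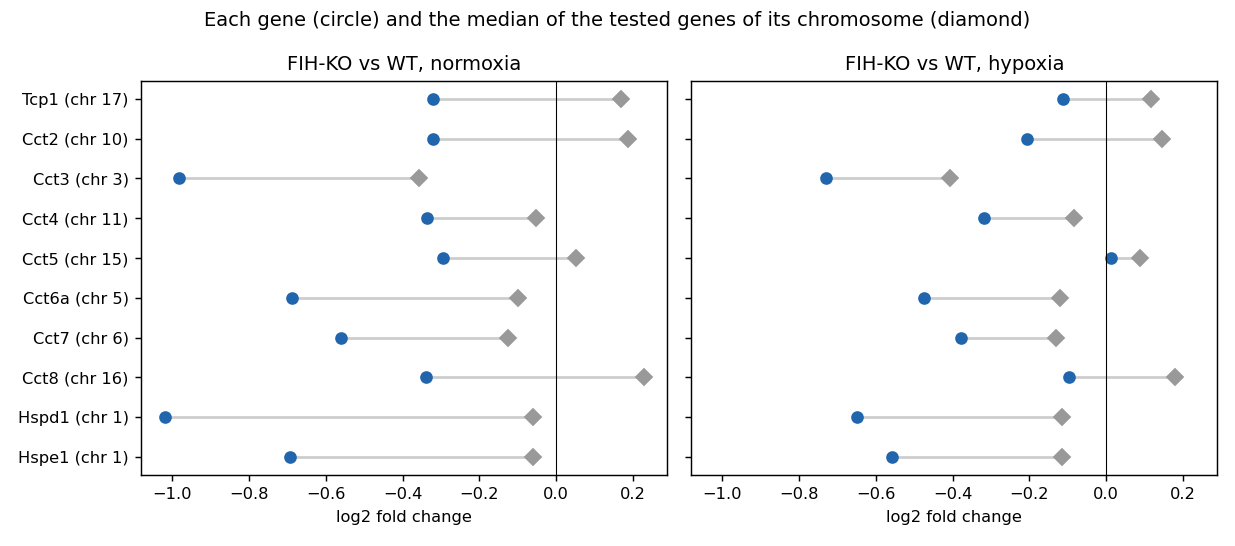
Log2 fold change of FIH-KO over WT (x axis) of each gene (circle) and the median of all tested genes on its chromosome (diamond), in normoxia and hypoxia. Every circle lies to the left of its diamond, and the diamond of chromosome 3 is at −0.36 and −0.41.

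Genes that start on the opposite strand within 1000 bases of a member were measured as well. The annotated spans of these genes overlap with that of the member, except for Atpsckmt. Psph, a serine synthesis enzyme that starts 451 bases from Cct6a, had −0.32 in normoxia (SE 0.14, adjusted p = 0.11) and −0.79 in hypoxia (SE 0.14, adjusted p = 0.0014), and rose by 1.64 with hypoxia in WT cells (adjusted p = 1.4e-05), where Cct6a fell. Mrpl18, a mitochondrial ribosomal protein gene next to Tcp1, had −0.38 (adjusted p = 0.11) and 0.19 (adjusted p = 0.43) for genotype and fell by 0.89 with hypoxia in WT cells (adjusted p = 0.0018). Atpsckmt next to Cct5, Pradc1 next to Cct7 and B130034C11Rik next to Cct8 did not pass in any of these 3 comparisons, and Tsacc, which starts 17 bases from Cct3, had too few reads to be tested. Annotated exons of Tcp1, Cct3, Cct4, Cct5, Cct6a, Cct7 and Cct8 overlap with genes on the opposite strand, by 38 bases for Cct3 and Tsacc and by 994 bases for Cct7 and Pradc1, and reads of such pairs cannot be told apart where a counting ignores strand.

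Proteins that work with CCT were examined from lists of its cochaperones, relatives and substrates. The 12 tested cochaperones included prefoldin subunits, which hand unfolded chains to CCT, and phosducin-like proteins that modulate it. The list also held the prefoldin-like proteins Uxt, Uri1 and Pdrg1, which are not subunits of prefoldin itself. Among them, 1 was lower and 2 were higher in FIH-KO cells in normoxia, with the same counts in hypoxia. Over all tested genes in these conditions, 13.0% and 13.9% were called lower and 15.2% and 14.1% higher. Pfdn2 was lower in both (−0.44, adjusted p = 0.017, and −0.50, adjusted p = 0.0091) and Pdcl higher in both (0.55, adjusted p = 0.0042, and 0.83, adjusted p = 0.0004). The gene called higher beside Pdcl was Pdrg1 in normoxia (0.86, adjusted p = 0.0011) and Pfdn5 in hypoxia (0.43, adjusted p = 0.019). Both were named after their values were seen. The median of the cochaperones was −0.10 in normoxia and 0.08 in hypoxia. Only 1 cochaperone was called in normoxia without FIH-KO normoxia replicate 1 or WT normoxia replicate 1, and 1 in hypoxia without WT hypoxia replicate 2. Pfdn2 lost its call in normoxia in 3 of the 8 fits with a library left out and in hypoxia in another 3, and Pdcl in 2 in normoxia and 0 in hypoxia.

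Of 3 tested CCT-like genes, which encode proteins that help assemble the ciliary BBSome, Bbs12 was lower in FIH-KO cells, by −1.44 in normoxia (SE 0.29, adjusted p = 0.0033) and −1.15 in hypoxia (SE 0.29, adjusted p = 0.012), the latter not called without FIH-KO hypoxia replicate 2 or WT hypoxia replicate 2. Mkks had 0.05 and 0.20, and Bbs10 0.38 and 0.14, none of which passed. Cct6b, the copy of Cct6a known from testis, had 1 to 8 reads per library.

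Of 24 known or presumed CCT substrates, among them the actins and tubulins, FIH-KO cells had 1 lower and 2 higher in normoxia, and 1 lower and 4 higher in hypoxia, shares of the list that were below those of all tested genes except for the 4 higher in hypoxia (14.1% of all). In normoxia the 3 calls became 0 without either WT normoxia library, 1 without FIH-KO normoxia replicate 1, 6 without FIH-KO hypoxia replicate 1 and 5 without FIH-KO hypoxia replicate 2 or with no filter on low counts. In hypoxia the 5 calls became 0 without WT hypoxia replicate 2, 3 in a fit on the 4 libraries compared and 8 with no filter. No substrate was called in the same direction in both. Their medians were −0.05 and 0.15. In WT cells, hypoxia lowered 12 of the 24 and raised 2, beside 15.5% and 16.9% of all tested genes, with a median of −0.35. Without WT hypoxia replicate 2 or WT normoxia replicate 2 it lowered 4. Actb, chosen here after its values were seen, was among those that fell, by 0.82 (log2 fold change −0.82, adjusted p = 0.0011).

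Of 6 tubulin-folding cofactors, which take tubulin over from CCT, 1 was called in each oxygen condition by genotype. These were Tbcc, higher in normoxia (0.55, adjusted p = 0.049), and Tbcd, higher in hypoxia (0.31, adjusted p = 0.038). Over all tested genes, 15.2% were called higher in normoxia and 14.1% in hypoxia. Tbcc was not called by DESeq2, with upper-quartile factors, with at least 10 counts required in every library, or in the 6 fits without a WT library or an FIH-KO normoxia library. Tbcd was not called with no filter, in a fit on the 4 libraries compared, or in the 5 fits without a WT library or FIH-KO hypoxia replicate 2. Tbca, Tbcb, Tbce and Arl2 had genotype values between −0.26 and 0.33 and did not pass. Hypoxia in WT cells lowered 3 of the 6 cofactors, Tbcd (−0.86), Tbcb (−0.45) and Tbca (−0.44), beside 15.5% of all tested genes. Of these 3, Tbcd alone kept its call in all 8 fits with a library left out.

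Of 16 other chaperones and proteases of mitochondria, 2 were called by genotype in normoxia, a share near the 13.0% of all tested genes called lower, and 4 in hypoxia, beside 13.9% of all, each of them lower, with medians of −0.20 and −0.17. The count in normoxia fell without either WT normoxia library or FIH-KO normoxia replicate 1. It rose without either FIH-KO hypoxia library, where not all calls were lower without FIH-KO hypoxia replicate 2. In a fit on the 4 libraries compared it was 5, with 4 lower and 1 higher. The count in hypoxia was 1 without either WT hypoxia library, and 2 without either WT normoxia library, with no filter or in a fit on the 4 libraries compared. Phb2, a prohibitin (−0.69, adjusted p = 0.0019, and −0.56, adjusted p = 0.0064), and Htra2, an intermembrane space protease (−0.40, adjusted p = 0.017, and −0.49, adjusted p = 0.0065), were lower in both. Hspa9, the mitochondrial Hsp70 that works ahead of Hsp60, had −0.31 (adjusted p = 0.074) and −0.14 (adjusted p = 0.43). With hypoxia in WT cells, 16.9% of all tested genes were called higher and 15.5% lower. In WT cells, hypoxia raised the matrix protease gene Lonp1 by 1.96 (adjusted p = 9e-06), Dnaja3 by 0.73 (adjusted p = 0.0015) and Hspa9 by 0.46 (adjusted p = 0.013), the 3 genes of the list called higher there, and lowered Htra2 by −0.60 (adjusted p = 0.0016) and Phb2 by −0.38 (adjusted p = 0.038), the 2 called lower. Of these 5, Lonp1, Dnaja3 and Htra2 were called in all 8 fits with a library left out, while Hspa9 lost its call in 4 and Phb2 in 3. Hspa9, Lonp1 and Dnaja3 were named after their values were seen.

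Of 23 tested genes of the mitochondrial protein import machinery, through which the precursors folded by Hsp60 enter, 12 were called by genotype in normoxia and 4 in hypoxia, each of them lower, beside 13.0% and 13.9% of all tested genes called lower, with medians of −0.33 and −0.18. The 12 became 3 without FIH-KO normoxia replicate 1, 2 without WT normoxia replicate 1 and 4 without WT normoxia replicate 2. The 4 became 0 without FIH-KO hypoxia replicate 2 or WT hypoxia replicate 1, and 2 without WT hypoxia replicate 2 or either WT normoxia library or in a fit on the 4 libraries compared. Timm9, Timm23, Tomm5 and Timm50 were lower in both conditions, with values of −0.54, −0.55, −0.80 and −0.46 in normoxia (adjusted p = 0.019, 0.014, 0.0041 and 0.035). In hypoxia they had −0.62, −0.57, −0.50 and −0.47 (adjusted p = 0.0096, 0.0115, 0.042 and 0.033). Among the alternative settings, Tomm5 lost its hypoxic call in 8, Timm50 in 6, and Timm9 and Timm23 in 2 each. In normoxia Timm50 lost its call in 4, Timm9 in 3 and Timm23 in 2. Over all tested genes, 15.5% were called lower with hypoxia in WT cells. In WT cells hypoxia lowered 4 of the 23, a count of 2 without WT normoxia replicate 2, 8 and 7 without FIH-KO hypoxia replicate 1 and 2, and 10 (with 1 higher) in a fit on the 4 WT libraries.

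Heat shock chaperones, cytosolic except for Serpinh1 and Hspa13 of the endoplasmic reticulum, moved in both directions. Of 26 tested, FIH-KO cells had 6 lower and 4 higher in normoxia, and 4 lower and 3 higher in hypoxia, beside 13.0% and 13.9% of all tested genes called lower and 15.2% and 14.1% called higher, with medians of −0.20 and −0.04. In normoxia, 13 were lower and 4 higher without FIH-KO hypoxia replicate 1, and 4 lower and 2 higher without WT normoxia replicate 1. In hypoxia, 3 were lower and 1 higher without WT hypoxia replicate 2. By the size of the smaller effect the leading gene was Hspa4l, an Hsp110 family member, lower by −1.69 and −1.35. Next were Hspa2, an Hsp70 (1.02 and 0.81), Hspb8, a small heat shock protein (0.76 and 1.03), and Bag3, its partner (0.66 and 0.65), all higher. Hspa2 was low, with means of 3.74 CPM in WT and 7.61 CPM in FIH-KO normoxia. The other genes called in the same direction in both conditions, named after their values were seen, were lower. They were Stip1 (−0.80 and −0.61), Hspa4 (−0.77 and −0.59) and Fkbp4 (−0.78 and −0.47), and Fkbp4 lost its hypoxic call in 3 settings. Hspa4l and Hspb8 were called in every fit with a library left out in both conditions. Bag3 lost its call without WT normoxia replicate 1 in normoxia and WT hypoxia replicate 2 in hypoxia. Hspa2 lost its call in 2 of the 8 fits in normoxia and 3 in hypoxia, where DESeq2 did not call it either. Over all tested genes, 15.5% were called lower with hypoxia in WT cells. In WT cells hypoxia lowered 6 of the 26, a count of 1 without WT hypoxia replicate 2, 3 without either WT normoxia library, and 8 (with 2 higher) without FIH-KO hypoxia replicate 2 or in a fit on the 4 WT libraries.

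**Figure D5:**
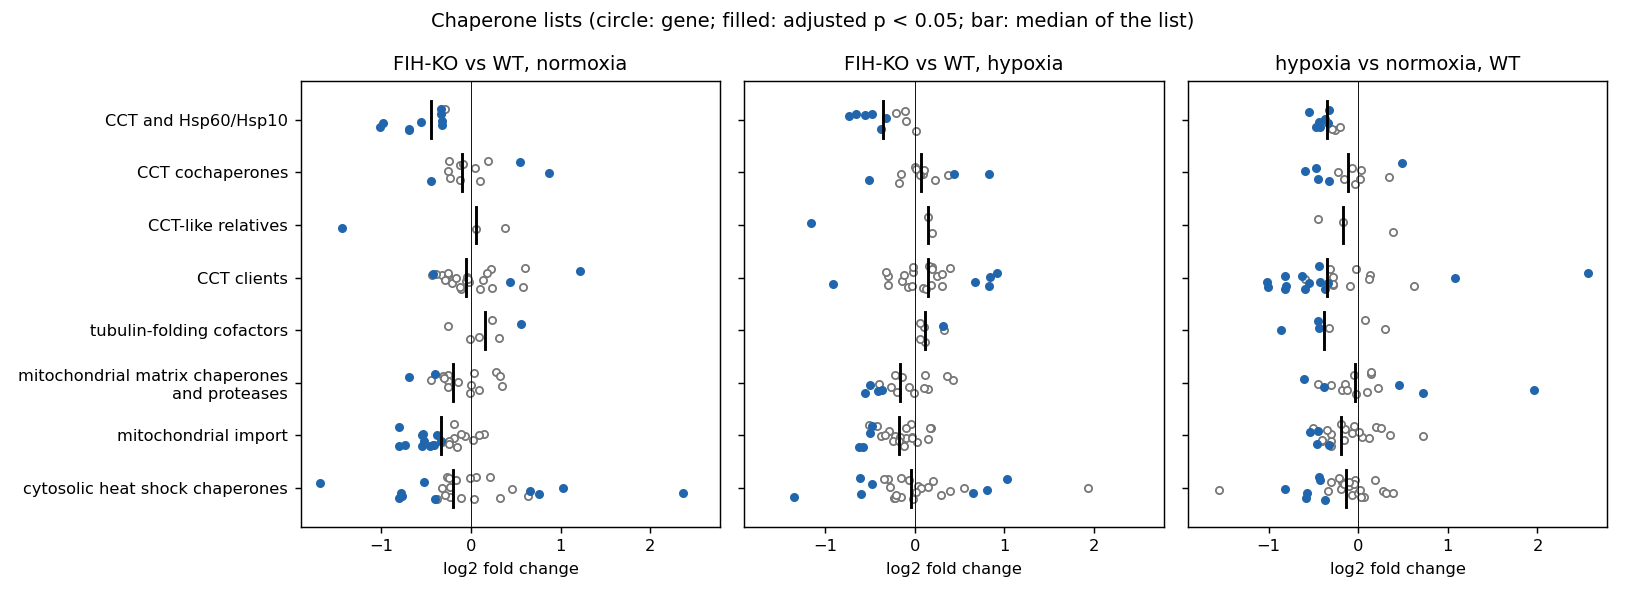
Log2 fold change (x axis) of each tested gene (circle, filled where the adjusted p was under 0.05) in 8 lists, with a bar at the median of the list, for genotype in each oxygen condition and for hypoxia in WT cells. In normoxia the medians run from −0.45 for the 10 chaperonin genes to 0.16 for the tubulin-folding cofactors.

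Transcription factors that are known to act on chaperone genes gave the following values. Myc, a growth regulator that activates many genes of protein synthesis and folding, was lower in FIH-KO cells, at 228 ± 34.1 against 111 ± 25.2 CPM in normoxia (SD, n = 2; log2 fold change −1.04, SE 0.29, adjusted p = 0.02) and 959 ± 296 against 347 ± 169 CPM in hypoxia (SD, n = 2; −1.47, SE 0.29, adjusted p = 0.0032). In WT cells it rose by 2.07 with hypoxia (adjusted p = 0.00038), where 7 of the 10 chaperonin genes fell. In normoxia by genotype both Myc and 9 of the 10 chaperonin genes were lower. A link between Myc and these genes was not tested. The call of Myc in normoxia was not made by DESeq2, nor without FIH-KO normoxia replicate 1 or WT normoxia replicate 1. Its partner Max had −0.07 and −0.31 for genotype, neither called, and rose by 0.57 with hypoxia in WT cells (adjusted p = 0.007), a call lost without WT hypoxia replicate 1 or WT normoxia replicate 2. Mycn had 0 reads.

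Hsf1 and Hsf2, which drive the heat shock response, had genotype values between −0.34 and 0.32 and did not pass in any comparison by genotype or in hypoxia in WT cells. The stress factors Atf4, Atf5 and Ddit3, which act when proteins misfold in mitochondria or the endoplasmic reticulum, rose with hypoxia in WT cells, by 1.11 (adjusted p = 0.00012), 1.78 (adjusted p = 0.00024) and 4.34 (adjusted p = 7e-06). By genotype in normoxia, Atf5 (0.70, adjusted p = 0.045) and Ddit3 (1.36, adjusted p = 0.011) were higher, and Atf4 had −0.29 (adjusted p = 0.12). The call of Atf5 was lost without any 1 of the 4 normoxia libraries or with at least 10 counts required in every library, and that of Ddit3 without FIH-KO normoxia replicate 1 or WT normoxia replicate 1. In hypoxia these 3 had 0.16, −0.40 and −0.18 and did not pass.

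The log2 CPM of each gene was centred and scaled over the 8 libraries, and the mean of the 10 was 1.44 and 1.31 in WT normoxia, 0.08 and −0.02 in WT hypoxia, −0.72 and −0.09 in FIH-KO normoxia, and −0.88 and −1.11 in FIH-KO hypoxia. The FIH-KO normoxia libraries were far apart, and replicate 2 lay near the WT hypoxia libraries. The correlation of each with the mean of the other 9 (Pearson's r of log2 CPM over 8 libraries, a description over libraries that fall into 4 groups) was 0.810 for Hspd1, 0.835 for Cct5 and between 0.942 for Cct8 and 0.987 for Cct7 for the other 8. The 5 genes outside the set whose profile was most like the mean of the 10, out of 8910 with a mean level of 10 CPM or more, were Mto1 (r = 0.996), Ruvbl1 (0.995), Serbp1 (0.995), Eef1d (0.994) and Ppp1r14b (0.993). Mto1 modifies mitochondrial transfer RNA, Ruvbl1 is an ATPase that works in assembly complexes, Serbp1 binds messenger RNA and ribosomes, and Eef1d is a subunit of a translation elongation factor. Their genotype effects in normoxia ran from −0.79 for Ppp1r14b to −0.59 for Serbp1. Negative values followed from the choice, since the profile they were matched to was lower in FIH-KO than in WT normoxia. Such likeness was common, with 411 genes at an r above 0.9.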

How the data were processed

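From stranded mRNA libraries, the authors produced reads with bcl2fastq, mapped these to GRCm39 by STAR, and obtained gene counts by HTSeq. The submitters' processing notes also name GRCm38 and DESeq2. The deposited values are raw read counts, whole numbers with no normalization. The annotation release, the strand setting and the handling of reads with several positions were not given in the sources used here.

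The tests used edgeR 4.0.16 (R 4.3.3). Low counts were removed with filterByExpr, which left 13933 genes, TMM factors were 0.983 to 1.02, and a single quasi-likelihood fit held all 8 libraries and 4 group means (4 residual degrees of freedom). P values were Benjamini-Hochberg adjusted across every tested gene, and genes called at an adjusted p under 0.05. SE is the absolute log2 fold change over the square root of F. The common biological coefficient of variation was 11.7%. Groups came from the sample labels, and all 8 library columns were used. Positions and transcript lengths were those of the GENCODE annotation on GRCm39, which matched 52610 identifiers (97.97%), and sequences were read from that genome with pysam 0.24.0.

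The members and lists were chosen with earlier results of these data known. Named from the lists were up to 4 genes called in the same direction in both genotype comparisons, ranked by the smaller change, all genes of lists of 6 or fewer, all regulators, opposite-strand neighbours starting within 1000 bases, and the 5 genes most correlated with the mean z-score of the 10. Alternatives were DESeq2 1.42.0, RLE and upper-quartile factors, library totals, no filter beyond 1 read, at least 10 counts in every library, the 4 libraries of a comparison only, the replicate number as a block, and each library left out in turn.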

Additional observations from a re-analysis of the deposited data

How the results depend on the processing

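Leaving out each library in turn moved the number of the 10 genes called between 5 and 10 for FIH-KO against WT in normoxia, 3 and 5 in hypoxia, 1 and 9 for hypoxia in WT cells and 0 and 1 in FIH-KO cells, with the median log2 fold change of the 10 between −0.57 and −0.39, −0.38 and −0.28, −0.43 and −0.35, and −0.21 and −0.048. The median difference of the genotype effect between oxygen conditions ran between 0.17 and 0.38, with 0 genes called throughout by edgeR. The cause was not tested. An arm with 1 library was assumed to vary like the other groups. For hypoxia in FIH-KO cells, DESeq2 called 1 gene and library totals 1, Hspe1 in both. Every other alternative kept the number called within 1.5 times in each comparison and the median within 1 SD of the libraries. Values near 0 changed sign in these cases: Cct5 in hypoxia by genotype, −0.00116 without FIH-KO hypoxia replicate 1 and −0.024 without WT hypoxia replicate 2 (range −0.024 to 0.089 with each library left out), and the difference for Cct4, −0.014 with library totals. The replicate numbers are not shown to pair the libraries (correlations of deviations −0.01 to 0.193). With the replicate block, 8 genes were called in normoxia by genotype (Tcp1 at an adjusted p of 0.051), and the counts for the other comparisons were 6, 7, 0 and 0. Over all genes, the fit on the 4 FIH-KO libraries alone called 1289 genes for hypoxia against 2345. With 2 libraries per group, changes near a log2 value of 0.3 sat at the threshold.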
